A study of Mus musculus with 69 samples.

Results

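The genes described here are 40 mitotic G2/M genes, the genes whose products carry a cell from late G2 through chromosome segregation to cytokinesis. They are picked by gene symbol, and all 40 were found among the 55367 gene rows of the count table and passed the low-count filter of every comparison. The lowest raw count of any of them in any library was 517. By role, they comprise the CDK1–cyclin engine and its activators (Ccna2, Ccnb1, Ccnb2, Cdk1, Cdc25b, Cdc25c, Cdca3), the G2/M transcription factors Foxm1 and Mybl2, the mitotic kinases Plk1, Aurka and Nek2, and the spindle checkpoint genes Bub1, Bub1b, Mad2l1 and Ttk. The others act in the anaphase-promoting complex (APC/C) pathway and chromatid separation (Cdc20, Ube2c, Pttg1, Espl1), at the centromere and kinetochore (Cenpa, Cenpe, Cenpf, Ndc80, Nuf2), in the chromosomal passenger complex (Aurkb, Birc5, Cdca8), in chromosome structure (Top2a), on the spindle (Kif11, Kif2c, Kif4, Tpx2, Hmmr), and at the central spindle and cleavage furrow (Kif20a, Kif23, Prc1, Anln, Ect2, Racgap1).

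The data are bulk poly(A) RNA-seq counts of 69 libraries, 3 replicates in each of 23 groups. The study asked how p53-deficient cells outcompete wild-type cells in mosaic gastruloids, which are aggregates of mouse embryonic stem (mES) cells that elongate and form tissues of the early embryo. All cells were E14Tg2A mES cells or their progeny. WT–mCherry cells carry H2B–mCherry under the EF1α promoter, WT–emiRFP cells carry H2B–emiRFP670 under the CAG promoter, and p53KO–emiRFP cells were made from WT–emiRFP cells by a homozygous frameshift in Trp53, with selection in a p53-activating drug. Each population is a single clone, so that clone and genotype cannot be told apart. At 0 h the 3 clones were profiled as mES cells. At 48, 72, 96, 120 and 144 h after aggregation, cells were sorted by fluorescence from WT + WT gastruloids (150 WT–mCherry and 150 WT–emiRFP cells seeded) or from WT + p53KO gastruloids (25 p53KO–emiRFP cells seeded with 150 WT–mCherry cells), and the Wnt activator CHIR was added at 48 h and kept until 72 h, so that in the comparison of 48 with 72 h time and CHIR cannot be told apart. p53KO–emiRFP cells are compared with WT–emiRFP cells of other gastruloids, so that the genotype, the number seeded and the neighbours also cannot be told apart.

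Entry into mitosis is driven by CDK1 bound to cyclin A or B, and exit follows when the APC/C, with its activator CDC20, marks cyclin B and securin for destruction. The genes of this programme are transcribed late in the cell cycle by the MuvB complex together with B-MYB (Mybl2) and then FOXM1, through a promoter element called the cell cycle genes homology region (CHR) and through CCAAT boxes bound by NF-Y. In quiescent cells, and when p53 raises the CDK inhibitor p21 (Cdkn1a), MuvB joins the DREAM repressor and the same genes are held down. Their messages are abundant in dividing cells and scarce in arrested cells, so their level in a bulk library depends on the share of cells in G2 and mitosis as well as on the amount of message per cell.

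The promoters of these genes share sequence that their choice did not use. RefSeq windows of the GRCm38.p6 build, from 250 bases before to 50 bases after each start site, were found for 34 members (36 windows, since Ect2 and Prc1 have 2 each). The CHR letters TTTGAA or TTCGAA, on either strand, lay in 28 of the 36 windows (77.8%), against 19.2% of all 32851 windows. CCAAT lay in 28 (77.8%), against 37.4% of all windows, and 18 of the 36 windows (50.0%) held it at least 2 times, against 11.7% of all. Both elements were found in 25 windows (69.4%), against 7.52% of all. The letters GGCGGGA or GCGGGAA, a core of E2F sites, were found in 10 windows (27.8%), against 13.3% of all. The 160 bases before the start site are shown for the genes on which the results below turn, with CHR, CCAAT and E2F letters in capitals, those of the other strand as they read on this one. Cdk1, Cdc20, Top2a and Ube2c hold CHR letters within this stretch, Ccnb1 has CCAAT letters without CHR letters, and Mybl2 has neither but has E2F letters close to its start site.
Cdk1, chr10:69352913-69353072, minus strand: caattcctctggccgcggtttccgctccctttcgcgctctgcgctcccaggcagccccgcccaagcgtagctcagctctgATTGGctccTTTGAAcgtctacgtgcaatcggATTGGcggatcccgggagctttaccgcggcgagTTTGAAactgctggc
Cdc20, chr4:118437344-118437503, minus strand: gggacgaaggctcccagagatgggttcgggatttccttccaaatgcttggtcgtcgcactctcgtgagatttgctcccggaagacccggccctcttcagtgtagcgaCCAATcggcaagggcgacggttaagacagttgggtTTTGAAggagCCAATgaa
Top2a, chr11:99024190-99024349, minus strand: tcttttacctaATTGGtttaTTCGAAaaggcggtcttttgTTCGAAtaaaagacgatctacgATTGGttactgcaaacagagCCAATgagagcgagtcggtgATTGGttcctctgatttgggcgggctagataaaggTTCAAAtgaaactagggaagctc
Ube2c, chr2:164769769-164769928, plus strand: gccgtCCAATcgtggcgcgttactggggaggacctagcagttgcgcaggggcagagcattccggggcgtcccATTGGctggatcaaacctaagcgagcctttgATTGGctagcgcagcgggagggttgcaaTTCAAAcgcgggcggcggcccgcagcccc
Ccnb1, chr13:100786487-100786646, minus strand: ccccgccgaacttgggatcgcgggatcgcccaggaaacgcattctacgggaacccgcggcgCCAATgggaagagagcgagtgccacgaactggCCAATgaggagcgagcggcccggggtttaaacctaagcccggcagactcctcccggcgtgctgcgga
Mybl2, chr2:163054475-163054634, plus strand: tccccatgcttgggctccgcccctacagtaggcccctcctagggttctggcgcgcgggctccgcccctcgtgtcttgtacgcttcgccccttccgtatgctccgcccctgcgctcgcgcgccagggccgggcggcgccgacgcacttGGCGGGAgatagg

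The libraries held 26722541 to 72981570 counted reads, of which the 40 members took 0.511 to 0.864%. Counts were divided by size factors and are given as normalised counts. Trp53, the targeted gene, stood between 1506 and 2589 normalised counts in the p53KO–emiRFP libraries and between 13902 and 27510.5 in the WT libraries, without overlap, as the labels state. Per kilobase of exon, averaged over the 69 libraries, Cdc20 was the most abundant member (8467 normalised counts per kilobase), followed by Mybl2 (4919) and Top2a (4854), and Cdc25b was the lowest (336). Part of the exon sequence of 11 members overlaps a gene on the opposite strand (among them 22.8% for Ube2c and 29.3% for Kif20a). The library preparation was stranded but the sources used here do not say which strand was counted, so reads of such partners may be included.

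In WT cells the median over the 40 members was high in mES cells and still high at 48 h. It reached its lowest level at 72 h, after the CHIR pulse, and by 120 h was back near its level at 48 h. Ccnb1, Cdk1, Plk1 and Cdc20, followed below, were not back. In each WT population all their libraries at 120 h lay below those at 48 h. The fall from 48 to 72 h took in members of every role. By the test given below, 35 of the 40 were lower at 72 h and 1, the CDK1-activating phosphatase Cdc25c, was higher. Of all genes tested, 34.1% were lower and 32.8% higher. The largest losses were in Top2a (DNA topoisomerase II), Ube2c (the ubiquitin-conjugating enzyme of the APC/C) and Prc1 (the microtubule bundler of the central spindle). Relative to the mean WT level at 48 h, the median log2 level over the 40 members averaged 0.20 in WT–mCherry and 0.14 in WT–emiRFP mES cells, -0.34 and -0.42 in the same clones at 72 h, and 0.01 and 0.00 at 120 h. The 3 libraries of a group differed from each other by less than the difference between 48 and 72 h in each population, as the plot of library medians shows. In these bulk libraries, fewer cells in G2 and mitosis and less message per cell cannot be told apart.

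**Figure D1:**
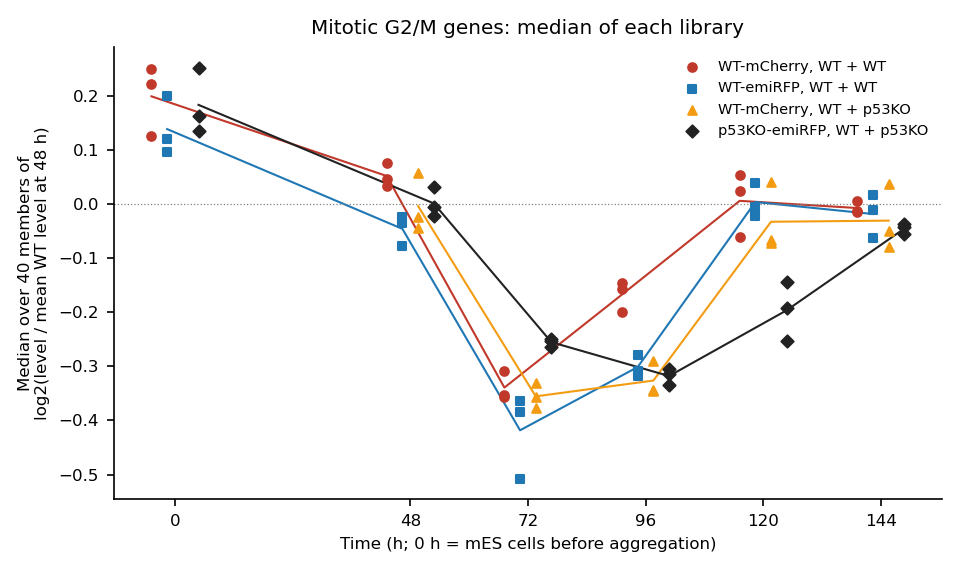
Median over the 40 members of the log2 ratio of each library's normalised count to the mean WT count at 48 h, against time in hours; each point is a library and lines join the means of the 3 libraries of a population. All 4 populations were lowest at 72 or 96 h, WT–mCherry cells of WT + WT gastruloids stood on average above the other 3 populations at 96 h, and p53KO–emiRFP cells stood on average highest at 72 h and lowest at 120 h.

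Consecutive time points of WT cells were compared, pooling both clones and, from 48 h, the WT–mCherry cells of both kinds of gastruloid. The comparison was made with edgeR's quasi-likelihood test, Benjamini-Hochberg adjustment over all 21132 genes tested and a threshold of 0.05 on the adjusted p. From 48 to 72 h, 36 of the 40 members were past the threshold, where 66.9% of all genes tested were (32.8% higher and 34.1% lower, against 1 and 35 of the members), and their median log2 fold change was -0.37, against -0.02 over all genes. Top2a stood at 27754, 32786 and 36493 normalised counts (lowest, median and highest of 9 libraries) at 72 h, against 44654, 53494 and 58701 at 48 h. Ube2c stood at 6114, 7657 and 8170.4 at 72 h, against 10320.1, 12215 and 13744. Prc1 stood at 3094, 3419 and 3703, against 4981, 5444 and 5712. For each of these genes, the highest library at 72 h lay below the lowest at 48 h. The log2 fold changes were -0.72 ± 0.05 (SE, edgeR adjusted p = 2.07e-20) for Top2a, -0.71 ± 0.05 (adjusted p = 1.36e-18) for Ube2c and -0.67 ± 0.03 (adjusted p = 1.17e-24) for Prc1. Cdc25c went the other way, from 1079, 1203 and 1268 to 1394, 1509 and 1567 normalised counts, again without overlap (0.32 ± 0.04, adjusted p = 1.07e-10). Over the same interval Cdkn1a, which encodes p21, rose by 2.69 ± 0.07 on the log2 scale (adjusted p = 9.14e-39), and 18 of 20 G1/S and replication genes were lower and 1 higher. The summed level of 5 neuronal markers went from 4410.4 to 4905 normalised counts at 48 h to 3218 to 4123 at 72 h over the 9 libraries (2 of the 5 higher, 3 lower). Of the mES cell markers 4 of 6 were higher and 1 lower, of the endothelial and blood markers 2 of 5 were lower, and of the cardiac markers 1 of 4 was higher and 1 lower. Mitochondrial transcripts took 1.30 to 1.46% of the counts at 48 h and 0.791 to 1.07% at 72 h in WT–emiRFP cells, 1.27 to 1.37% and 0.874 to 1.06% in WT–mCherry cells beside p53KO cells, and 1.26 to 1.37% and 1.02 to 1.49%, with overlap, in those beside WT cells. The part of these in the fall of the members was not tested. With each replicate left out in turn, 34 of the 36 calls were kept.

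Between the mES cell state and 48 h, individual members moved further than the set as a whole. Here 29 members were past the threshold, 5 higher and 24 lower, a share close to the background of 70.3% of all genes (33.1% higher, 37.2% lower), and the median log2 fold change was -0.10 (-0.03 over all genes). Mybl2, the B-MYB subunit of the activating MuvB complex, had 45705, 52228 and 56681 normalised counts over 6 mES cell libraries and 17489, 18594 and 21122 at 48 h, a change of -1.45 ± 0.04 (adjusted p = 1.57e-35). Hmmr, a spindle-pole microtubule protein, went from 9719, 11719 and 14406 to 5193, 5860.3 and 6553 (-1.02 ± 0.04, adjusted p = 3.7e-30). Ndc80, the microtubule-binding kinetochore protein, went from 4407, 4988 and 5743 to 2656, 3029.9 and 3220.3 (-0.74 ± 0.04, adjusted p = 3.66e-22). In none of these did the libraries of the 2 time points overlap. Foxm1 moved opposite to Mybl2, from 4400.5, 4675 and 4765 to 5574, 5798 and 6140.2 (0.32 ± 0.03, adjusted p = 8.25e-15), also without overlap. Cyclin A2 (Ccna2) rose from 11714, 12798 and 14336 to 13966, 14817 and 16024 with ranges that overlapped slightly (0.23 ± 0.03, adjusted p = 7.36e-10). The mES cell markers fell beside Mybl2 over this interval (5 of 6 lower, median log2 fold change -3.70). Over the WT libraries the summed neuronal markers, mostly Stmn2 in mES cells, went from 29327 to 39736 normalised counts to 4410 to 4905. The summed endothelial and blood markers, mostly Pecam1, went from 3625 to 5155 to 1844 to 2381.5. The part of these markers in the fall of Mybl2 was not tested.

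After 72 h the median over the members rose in steps. From 72 to 96 h, 25 members rose and 5 fell (58.6% of all genes were past the threshold, 30.4% higher and 28.2% lower). The median was 0.15, against 0.00 over all genes. All 5 centromere and kinetochore genes were among those that rose, and the largest rises were in other roles. Cdc25c rose again, from 1394, 1509 and 1567 to 1769, 1907 and 2073 (0.37 ± 0.04, adjusted p = 9.61e-13). The passenger complex kinase Aurkb rose from 3219.6, 3562 and 3871 to 4106, 4572 and 4996 (0.35 ± 0.03, adjusted p = 1.64e-13). Cyclin B2 (Ccnb2) rose from 4395, 4440.0 and 5135 to 5422, 5623 and 6014 (0.32 ± 0.04, adjusted p = 2e-11). The ranges of the 2 time points did not overlap for these 3 genes. Cdc25b, a sister phosphatase of Cdc25c, fell instead, from 895, 948 and 1053 to 580, 616 and 706 (-0.60 ± 0.05, adjusted p = 1.5e-14). A smaller fall with overlapping ranges was found for Birc5, which encodes survivin, from 5203, 5997 and 6358 to 5093, 5267 and 5985 (-0.14 ± 0.03, adjusted p = 0.000701). Racgap1, a component of the central spindle, behaved likewise, from 7459, 8269 and 8605 to 7055, 7419 and 8273 (-0.12 ± 0.02, adjusted p = 1.55e-05). Over the WT libraries the summed mES cell markers went from 49004 to 63874 normalised counts at 72 h to 34367 to 47574 at 96 h. The summed neuronal markers went from 3218 to 4123 to 2288 to 2883. The part of these markers in the members' changes was not tested.

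From 96 to 120 h, 31 members rose and 1 fell (56.8% of all genes past the threshold, 28.8% higher and 28.0% lower; median 0.16, against 0.00 over all genes). All 7 members of the CDK1–cyclin engine and all 5 spindle genes were among those that rose. Cdc25b rebounded from 580, 616 and 706 to 1032, 1198 and 1373 (0.92 ± 0.05, adjusted p = 8.1e-22). Mybl2 rose from 13333, 14707 and 17323 to 20044, 22563 and 28860.3 (0.64 ± 0.04, adjusted p = 2.07e-20). Anillin (Anln), a scaffold of the cleavage furrow, rose from 6562, 6860.4 and 7682 to 9429, 10676 and 11313 (0.60 ± 0.04, adjusted p = 1.36e-20). None of these ranges overlapped. The mES cell markers rose beside Mybl2 in this interval (5 of 6 higher, 1 lower, median 0.78), and their part in its rise was not tested. Their summed level in WT–emiRFP cells was 34367 to 38879 normalised counts at 96 h and 63972 to 71513 at 120 h. From 48 to 72 h they had not gone together. Mybl2 was then among the members that were lower, while the summed markers rose in each WT population, from 44974 to 47918 to 49004 to 57410 in WT–emiRFP cells. The central spindle kinesin Kif20a fell slightly, from 8627, 9397 and 10548 to 8499, 8769 and 9544, with overlap (-0.09 ± 0.03, adjusted p = 0.00414).

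From 120 to 144 h, 15 members rose and 5 fell (55.4% of all genes past the threshold, 28.6% higher and 26.8% lower; median 0.05, against 0.01), and scaling by total counts gave 21 and 3. Cdc25b rose further, from 1032, 1198 and 1373 to 1644, 1958 and 2213 (0.68 ± 0.05, adjusted p = 9.48e-17), and Anln from 9429, 10676 and 11313 to 11895, 13375 and 15362 (0.38 ± 0.04, adjusted p = 6.8e-13), both without overlap. Securin (Pttg1) rose from 1228, 1645 and 1964 to 1556, 1996 and 2372 (0.36 ± 0.10, adjusted p = 0.00236). The checkpoint protein Mad2l1 fell from 8665, 9714 and 10286 to 7055, 8069 and 8813 (-0.25 ± 0.03, adjusted p = 1.07e-09). Nuf2 of the outer kinetochore fell from 2968, 3314 and 3552 to 2533, 2732 and 3323 (-0.22 ± 0.04, adjusted p = 9.67e-06), and Foxm1 fell from 5772, 6581 and 7059 to 4976, 5939 and 6468 (-0.14 ± 0.03, adjusted p = 3.28e-06). These last 4 ranges overlapped. In this interval 18 of 20 G1/S and replication genes fell and none rose. Over the WT libraries the summed endothelial and blood markers, mostly Pecam1, went from 2346 to 4166 normalised counts at 120 h to 4180 to 6448 at 144 h. Their part in the members' changes was not tested.

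Of the members that differed past the threshold between p53KO–emiRFP and WT–emiRFP cells, most were higher in p53KO cells at 72 h and lower at 120 h. In mES cells no member differed between p53KO–emiRFP and WT–emiRFP cells past the threshold by edgeR (0 of 40, where 6.13% of all genes were past it; 1 member had an unadjusted p below 0.05 and DESeq2 called 1). At 72 h, 18 members were higher and 2 lower in p53KO cells (13.4% and 15.7% of all genes). At 120 h, 14 were lower and 2 higher (23.7% and 27.3% of all genes), and at 144 h, 16 were lower and 9 higher (32.1% and 33.1%). In either direction, 29.1%, 51.0% and 65.3% of all genes passed at these times. Over the 6 time points, 19 members were past the threshold only as higher, 12 only as lower, 7 in both directions at different times, and 2 (Aurkb and Birc5) at no time. Of all genes tested at the 6 times, 34.7% were past it only as higher, 28.2% only as lower, 18.5% in both directions and 18.6% at no time, so that the shares of the members called only lower or in both directions lay near those of all genes. The difference between p53KO–emiRFP and WT–emiRFP cells changed over time for 27 of the 40 members by edgeR's F test across the 6 time points, a share near the 62.5% of all genes, with the smallest adjusted p for Mybl2 (9.91e-27), Foxm1 (1.32e-14), Anln (1.34e-12) and Nek2 (8.49e-12).

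**Figure D2:**
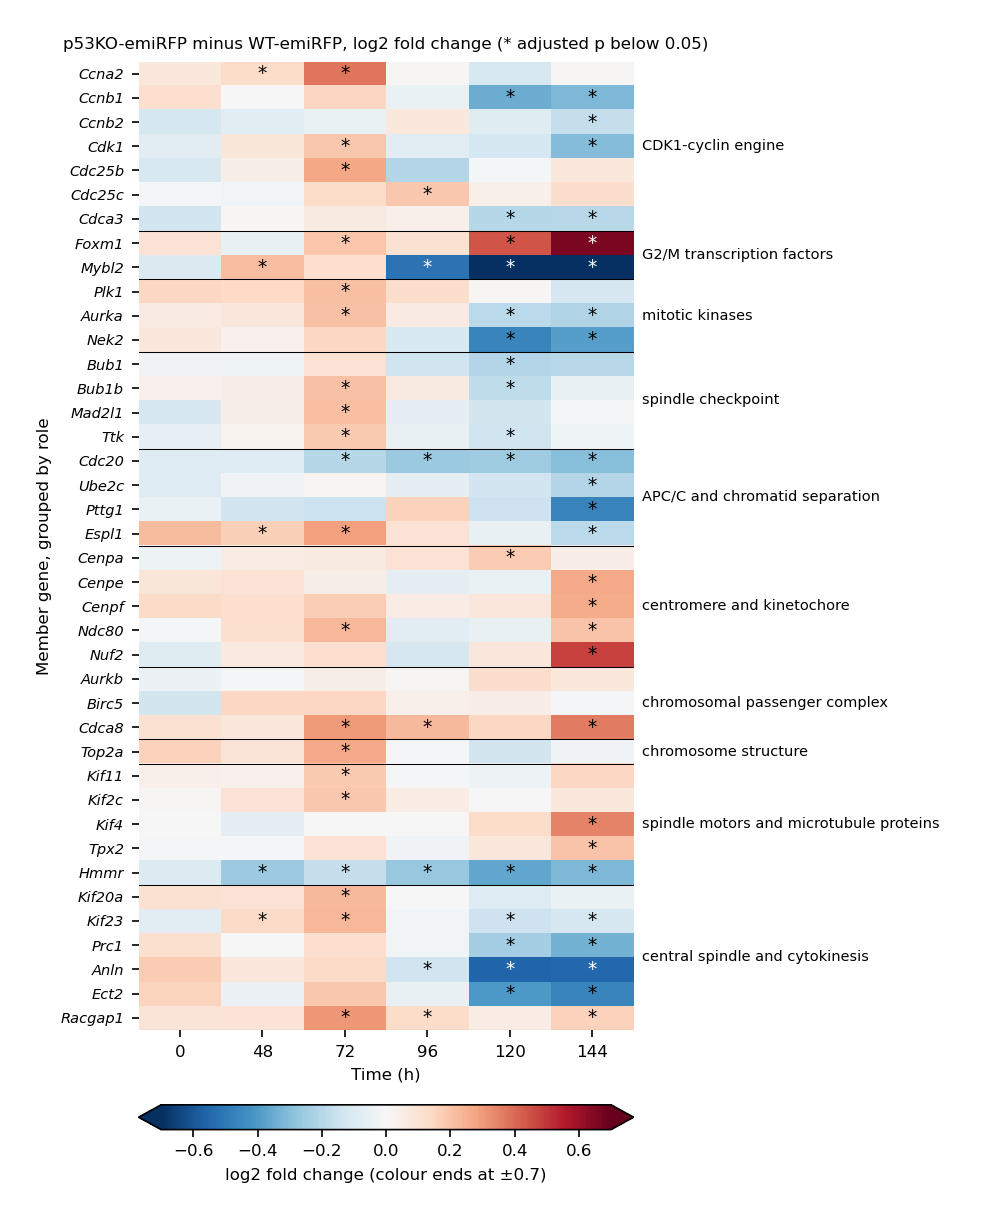
Fitted log2 fold change of p53KO–emiRFP over WT–emiRFP cells for each of the 40 members (rows, grouped by role) at each time in hours (columns); red is higher and blue lower in p53KO–emiRFP cells, asterisks mark an adjusted p below 0.05, and colours end at ±0.7, which Mybl2 at 120 and 144 h exceeds. Red dominates at 72 h with 18 members higher (13.4% of all genes were higher), and blue dominates at 120 h with 14 lower (23.7% of all genes were lower).

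At 48 h p53KO–emiRFP cells differed in few members: 4 were higher and 1 lower, below the 22.0% of all genes past the threshold (10.3% higher, 11.7% lower). Mybl2 stood at 20130.4, 21335 and 20072 normalised counts in the 3 p53KO libraries and 17489, 17905 and 17541 in the 3 WT–emiRFP libraries (0.22 ± 0.04, edgeR adjusted p = 0.00129). Separase (Espl1), which cleaves cohesin at anaphase, stood at 12907, 13866 and 13866 and 11853, 11735 and 12552 (0.17 ± 0.05, adjusted p = 0.0189). The groups of both genes did not overlap. Kif23, a kinesin of the central spindle, stood at 7038, 6612 and 6782 against 6308, 6245 and 6046 (0.14 ± 0.04, adjusted p = 0.0404). Hmmr, the gene that was lower, stood at 4973, 4473 and 4667 against 5852, 5229 and 5767 (-0.26 ± 0.06, adjusted p = 0.00923), again without overlap. With the replicate number as a block, 21 members were past the threshold (17 higher, 4 lower), where 41.1% of all genes were. TMM scaling gave 2 higher and 1 lower, and only Mybl2 kept its call with each replicate left out in turn. Mitochondrial transcripts took 0.880 to 1.11% of the counts in p53KO and 1.30 to 1.46% in WT–emiRFP libraries. The summed neuronal markers stood at 4996 to 5774 and 4640 to 4772 normalised counts. The part of either in the members' differences was not tested. WT–mCherry cells beside WT cells stood at 20884, 20367 and 21122 for Mybl2 and 7132, 6881 and 7042 for Kif23, overlapping the p53KO libraries for both genes. The comparison of the 2 WT clones, which shares the WT–emiRFP libraries, gave -0.24 ± 0.04 (adjusted p = 0.00188) for Mybl2 and -0.18 ± 0.04 (adjusted p = 0.0204) for Kif23, and the WT–emiRFP libraries lay below those of the other 3 populations for both genes.

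At 72 h 20 members were past the threshold, 18 of them higher in p53KO–emiRFP cells, against 29.1% of all genes (13.4% higher, 15.7% lower), and the median log2 fold change was 0.16 (0.01 over all genes). The rise covered 3 of 4 checkpoint genes, 3 of 6 central spindle genes, 3 of 7 engine genes and 2 of 3 mitotic kinases. Ccna2 stood at 13747, 13168 and 13544 in p53KO and 10140.2, 10968 and 10151 in WT–emiRFP cells. Racgap1 stood at 9793, 9909.8 and 9547 against 7785, 8479.8 and 7459, and borealin (Cdca8), of the passenger complex, at 8854, 9167 and 8362 against 7587, 7603 and 6284. All 3 p53KO libraries lay above all 3 WT libraries for these genes, whose log2 fold changes were 0.37 ± 0.05 (adjusted p = 2.97e-05), 0.30 ± 0.05 (adjusted p = 0.000631) and 0.30 ± 0.07 (adjusted p = 0.00446). The 2 members that were lower were Cdc20, described below, and Hmmr, at 4593, 4535 and 4712 against 4894, 5246 and 5394 (-0.17 ± 0.05, adjusted p = 0.0315). G1/S and replication genes were higher alongside them (17 of 20, median 0.22), as they were at 48 h (14 of 20, median 0.16). The count of members fell to 7 without replicate 1, 12 without replicate 2 and 13 without replicate 3. Ccna2, Racgap1, Cdca8, Cdc25b, Bub1b, Espl1 and Kif23 kept their calls in all 3, and the 2 lower calls did not. The summed endothelial and blood markers, mostly Pecam1, stood at 1244 to 1327 normalised counts in p53KO and 1440 to 1575 in WT–emiRFP libraries. Their part in the members' differences was not tested. In the comparison of the 2 WT clones at this time, which shares the WT–emiRFP libraries, 3 members were lower in WT–emiRFP cells and none higher, with a median of -0.10 and 35 of the 40 log2 fold changes below 0.

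At 96 h the difference was mixed, with 3 members higher and 4 lower, a share below the 23.3% of all genes past the threshold (9.45% higher, 13.8% lower), and a median of -0.01. Cdca8 stood at 8625, 8455 and 7876 against 7137, 7389 and 6767 (0.23 ± 0.05, adjusted p = 0.00383). Cdc25c stood at 2186, 2019 and 2122 against 1907, 1769 and 1875 (0.19 ± 0.05, adjusted p = 0.0201), and Racgap1 at 8135, 8016 and 7684 against 7333, 7435 and 7055 (0.13 ± 0.04, adjusted p = 0.0336). These 3 were higher in every p53KO library than in any WT–emiRFP library. Mybl2, Cdc20 and Hmmr were lower in every p53KO library than in any WT–emiRFP library, Hmmr at 4629, 4321 and 4351 against 5645, 5181 and 5136 (-0.26 ± 0.06, adjusted p = 0.00321), and these 3 kept their calls with each replicate left out. With the replicate block 15 members were past the threshold (8 higher, 7 lower, with 38.6% of all genes past it), and TMM scaling and scaling by total counts each gave 7 higher and 3 lower.

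At 120 h, 16 of the 40 members were past the threshold, a share below the 51.0% of all genes (27.3% higher and 23.7% lower), with 14 lower and 2 higher in p53KO–emiRFP cells. The library medians averaged -0.20, against 0.00 in WT–emiRFP cells, and the median log2 fold change was -0.10 (0.05 over all genes). Besides Mybl2, the largest falls were in Anln and in the centrosome kinase Nek2. Anln stood at 6974, 7406 and 7703 in p53KO and 10472, 11178 and 10901 in WT–emiRFP cells, and Nek2 at 1559, 1371 and 1430.0 against 2077, 1942 and 1976. Neither pair of groups overlapped (-0.56 ± 0.07, adjusted p = 1.05e-05 for Anln and -0.46 ± 0.06, adjusted p = 2.82e-05 for Nek2). The 2 that were higher were Foxm1 and the centromeric histone Cenpa, at 8634, 8993 and 8327 against 7808, 7888 and 7267 (0.18 ± 0.05, adjusted p = 0.00973). By role, 4 of 6 central spindle and cytokinesis genes and 3 of 4 checkpoint genes were lower, and no centromere or kinetochore gene was. Summed levels of marker genes differed at this time too. The summed level of the 6 mES cell markers was 15004 to 15939 normalised counts in p53KO and 63972 to 71513 in WT–emiRFP libraries, that of 5 endothelial and blood markers 594 to 790.0 and 3712 to 4166, and that of 5 neuronal markers 1407 to 1582 and 2712 to 3037. That of 4 cardiac markers overlapped, at 188 to 212 and 180.3 to 214. The endothelial and blood sum was mostly Pecam1 (3659 of 3889 normalised counts on average in WT–emiRFP cells), which the paper used as a pluripotency surface marker. In WT–emiRFP mES cells this sum averaged 4776 and the neuronal sum, mostly Stmn2, 35074, so neither marks those tissues alone. The part of these markers in the members' differences was not tested. The replicate block gave 26 members (5 higher, 21 lower, with 61.7% of all genes past the threshold), and the count was 7 without replicate 1, 12 without replicate 2 and 15 without replicate 3. Ccnb1, Foxm1, Mybl2, Nek2, Hmmr, Anln and Ect2 kept their calls in all 3.

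At 144 h, 25 of the 40 members were past the threshold, a share near the 65.3% of all genes (33.1% higher and 32.1% lower). The lower ones included 4 of 7 engine genes, all 4 genes of the APC/C and chromatid separation group and 4 of 6 central spindle and cytokinesis genes, of which 1 more was higher. Of the 5 centromere and kinetochore genes, 4 were higher and none lower. Of the 5 spindle motor and microtubule genes 2 were higher and 1 lower, of the 3 chromosomal passenger genes 1 was higher, and none of the 4 checkpoint genes passed. Differences between the roles were not tested. Without replicate 1, 2 or 3 the calls numbered 20, 17 and 27, of which 9, 5 and 10 were higher. The calls kept with each replicate left out numbered 16, among them Nuf2 but not the other 3 kinetochore genes, and Cdc20 and Espl1 but not the other 2 APC/C genes. The median over all 40 was -0.04, against 0.01 over all genes, with single members from -1.69 to 0.66. Nuf2 stood at 3812, 3741 and 3573 in p53KO and 2738, 2546 and 2699 in WT–emiRFP cells (0.48 ± 0.05, adjusted p = 2.43e-06). Cdca8 stood at 10649.9, 9847 and 9510.3 against 8079, 7788 and 7496 (0.36 ± 0.06, adjusted p = 0.000102). Anln stood at 9181, 9764 and 10206 against 13355, 14341 and 14978 (-0.55 ± 0.07, adjusted p = 5.53e-06). Pttg1 stood at 1531, 1658 and 1551 against 2235, 2372 and 1959 (-0.47 ± 0.13, adjusted p = 0.00542). None of these groups overlapped. The other kinetochore genes that were higher were Ndc80 (0.20 ± 0.05, adjusted p = 0.00257), Cenpe (0.26 ± 0.06, adjusted p = 0.00193) and Cenpf (0.26 ± 0.09, adjusted p = 0.0179), and the spindle kinesin Kif4 was higher too (0.35 ± 0.05, adjusted p = 1.18e-05). Ect2, which acts in cytokinesis, was lower (-0.46 ± 0.07, adjusted p = 8.56e-05), as was Prc1 (-0.33 ± 0.05, adjusted p = 4e-05). The members past the threshold at both 120 and 144 h numbered 12, against 45.0% of all genes tested at both (Ccnb1, Cdca3, Foxm1, Mybl2, Aurka, Nek2, Cdc20, Hmmr, Kif23, Prc1, Anln and Ect2), and all 12 had the same direction at both, as had nearly all such genes (44.1% of all genes tested).

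The 2 transcription factors of the set went opposite ways in p53KO–emiRFP cells at 120 and 144 h. Mybl2 did not pass the threshold between p53KO and WT–emiRFP mES cells, at 50321, 51599.5 and 50861 and 56681, 54868 and 52046 normalised counts (-0.10 ± 0.08, adjusted p = 0.596), nor at 72 h, at 13339.8, 13337 and 13065 and 12298, 12799.7 and 11499.8 (0.12 ± 0.06, adjusted p = 0.174). It then stood at 10632, 9702 and 10309 in p53KO against 14707, 15222 and 14001 in WT–emiRFP cells at 96 h (-0.52 ± 0.06, adjusted p = 4.44e-05). The gap was larger at 120 h, with 9436, 9314 and 9561 against 24276, 28860.3 and 28153 (-1.52 ± 0.08, adjusted p = 4.28e-09), and at 144 h, with 9717, 10639 and 12268 against 34158, 33614 and 37722 (-1.69 ± 0.08, adjusted p = 9.36e-10). At 96, 120 and 144 h every p53KO library lay below every WT library of the same time: the p53KO libraries stayed between 9314 and 12268 normalised counts over these times, while WT cells rose from 96 to 120 h as given above. The mES cell markers (Pou5f1, Nanog, Klf4, Esrrb, Zfp42, Sox2) moved with Mybl2 in p53KO cells. They were lower for 4 of 6 at 96 h (median -1.0), 6 of 6 at 120 h (median -2.16) and 6 of 6 at 144 h (median -2.40). Whether cells that express these markers carry the Mybl2 message was not tested. Of the promoter stretches shown above, that of Mybl2 is the one with E2F letters and with neither CHR nor CCAAT letters.

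Foxm1 was higher in p53KO cells at 72, 120 and 144 h. p53KO and WT–emiRFP cells had 5341, 5629 and 5391 and 5574, 5731 and 5626 normalised counts at 48 h (-0.05 ± 0.04, adjusted p = 0.449). At 72 h they had 5886, 6044 and 6038 and 5199, 5553 and 4978 (0.19 ± 0.06, adjusted p = 0.0245), a call that was lost without replicate 1 or 3. At 96 h, when Mybl2 was first lower, Foxm1 did not pass, at 6184, 6322 and 6126 and 5599, 5796 and 5878 (0.11 ± 0.04, adjusted p = 0.0591, 0.00761 with the replicate block). At 120 h the p53KO libraries were at 7888, 7769 and 7914 and the WT–emiRFP libraries at 5819.6, 5784 and 5772 (0.44 ± 0.04, adjusted p = 1.14e-06). At 144 h they were at 8684, 8334 and 8038 and 5460.1, 5426 and 4976 (0.66 ± 0.05, adjusted p = 1.11e-07), without overlap at either time. WT–emiRFP cells themselves had less Foxm1 than WT–mCherry cells of the same gastruloids at 120 h (6942, 6801 and 7059 in WT–mCherry, -0.26 ± 0.04, adjusted p = 0.00883, a call lost without replicate 1 or 3 and with the compared groups fitted alone) and at 144 h (6468, 6446 and 6445; -0.29 ± 0.05, adjusted p = 0.00177), and the p53KO libraries lay above those of WT–mCherry cells too at both times. The comparison of the clones and that of p53KO cells share the WT–emiRFP libraries.

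**Figure D3:**
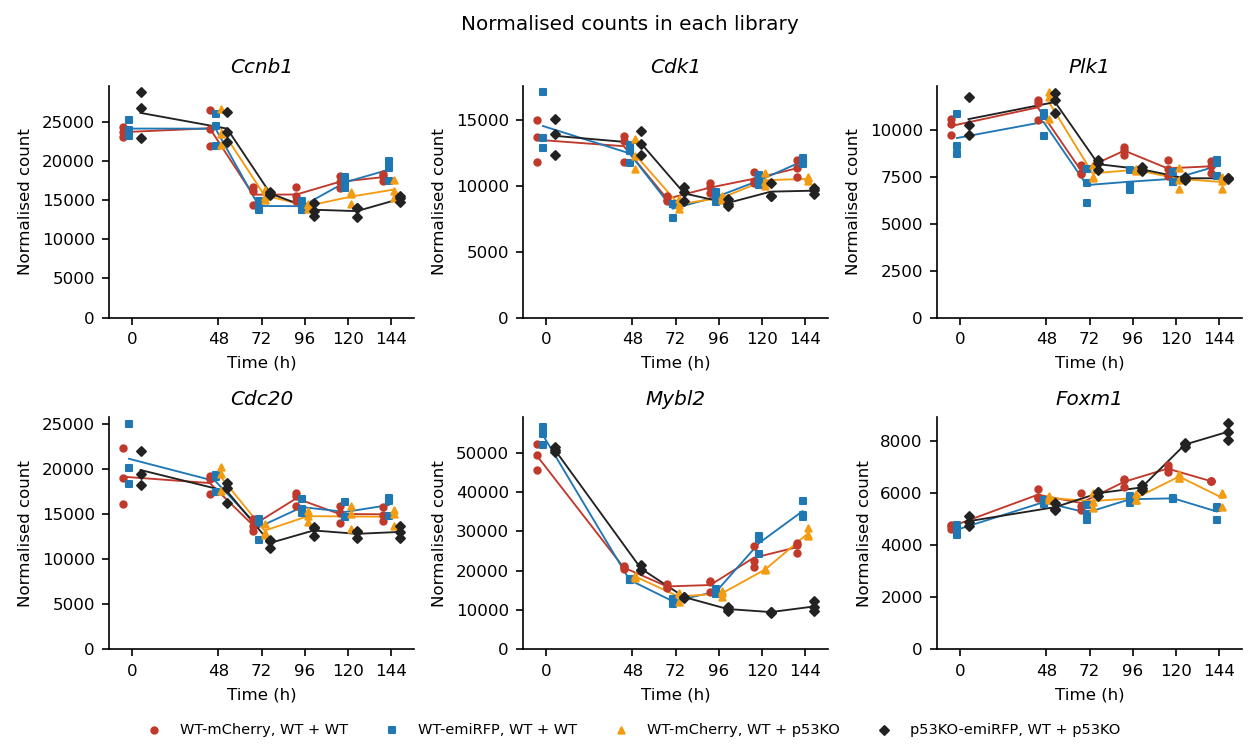
Normalised counts of 6 members against time in hours; each point is a library, lines join the means of 3 libraries, and colours and marker shapes give the 4 populations. Ccnb1, Cdk1, Plk1 and Cdc20 stood lower at 72 than at 48 h in every population, Mybl2 stood lowest in p53KO–emiRFP cells from 96 h on, and Foxm1 was highest in p53KO–emiRFP cells at 120 and 144 h.

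Ccnb1 encodes cyclin B1, the activating subunit of CDK1 at mitotic entry (chr13:100778650-100786570, minus strand). In mES cells it stood at 23668, 24321 and 23081 normalised counts in WT–mCherry, 23983, 25256 and 23194 in WT–emiRFP and 28788, 26716 and 22937 in p53KO–emiRFP libraries. At 48 h it stood at 26464, 24138 and 21927 in WT–mCherry and 25999.5, 24438 and 21962 in WT–emiRFP cells of WT + WT gastruloids, and at 26687, 23469.5 and 21989 and 26299, 23689 and 22433 in the WT–mCherry and the p53KO–emiRFP cells of mixed-genotype gastruloids. All populations overlapped at both times. At 72 h, in the same order, the values were 16649.5, 16131 and 14327, then 13706, 14936 and 14137, then 16282, 15436 and 15073 and 16105, 15808 and 15647. WT cells had changed by -0.67 ± 0.04 on the log2 scale (adjusted p = 3.95e-21), while p53KO cells lay above WT–emiRFP cells without passing the threshold (0.15 ± 0.06, adjusted p = 0.0672, and 0.0216 with the replicate block). At 96 h the values were 16717, 15539.7 and 14901, then 14920.2, 14064 and 13707, then 14495, 13917 and 14399.5 and 14636, 13671 and 13032, and WT cells had not moved since 72 h past the threshold (-0.04 ± 0.04, adjusted p = 0.382). At 120 h they were 18131, 16576 and 17325, then 18015, 16602 and 17257, then 15774, 14488 and 16105 and 13938, 12898 and 13958. WT cells had risen (0.18 ± 0.04, adjusted p = 0.000182) and p53KO cells were lower than WT–emiRFP cells without overlap (-0.35 ± 0.06, adjusted p = 0.000206). At 144 h they were 17436, 18326 and 18039, then 17505, 19147 and 20019, then 15296, 16208 and 17594 and 14717, 15561 and 15249.8, and the p53KO deficit stood at -0.32 ± 0.06 (adjusted p = 0.000431). In mES cells and at 48 and 96 h the p53KO difference was 0.12 ± 0.09, 0.00 ± 0.08 and -0.05 ± 0.05 (adjusted p = 0.579, 0.998 and 0.591). Its change over the time course passed the F test (adjusted p = 1.13e-05). In WT cells the intervals from 0 to 48 h and from 120 to 144 h gave 0.01 ± 0.05 (adjusted p = 0.832) and 0.09 ± 0.04 (adjusted p = 0.0712, 0.0369 with the replicate block).

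Cdk1 encodes the mitotic kinase itself (chr10:69335146-69352938, minus strand). In mES cells it stood at 14999, 13683 and 11848 in WT–mCherry, 17117, 13638 and 12909.7 in WT–emiRFP and 15096, 13961 and 12375 in p53KO–emiRFP libraries. At 48 h, in the order WT–mCherry and WT–emiRFP of WT + WT gastruloids, then WT–mCherry and p53KO–emiRFP of mixed-genotype ones, it stood at 13829.7, 13431 and 11808, then 13080.5, 12651 and 11709, then 13554, 12288 and 11280.3 and 14177, 13157 and 12379. The p53KO libraries overlapped with WT–emiRFP at both times (-0.08 ± 0.12, adjusted p = 0.816 at 0 h and 0.08 ± 0.07, adjusted p = 0.458, 0.0166 with the replicate block, at 48 h). At 72 h the values were 8954, 9243 and 8873, then 8647, 8616 and 7557, then 8999, 8262 and 8582 and 9940.0, 9522 and 8829. WT cells had changed by -0.55 ± 0.04 (adjusted p = 1.24e-16) after a smaller loss from 0 to 48 h (-0.15 ± 0.05, adjusted p = 0.00466), and all 3 p53KO libraries lay above the WT–emiRFP libraries (0.19 ± 0.06, adjusted p = 0.0322, a call lost without replicate 1 or 2). At 96 h they were 10192, 9955 and 9499, then 9157, 9532 and 8798, then 8955, 9093 and 9260.0 and 9031, 8613 and 8469. At 120 h they were 11044, 10191 and 10392, then 10867, 10350.5 and 10042, then 10953, 10322 and 10029 and 10229.9, 9218 and 9263. WT cells rose a little from 72 to 96 h, to 120 h and to 144 h (0.12 ± 0.04, 0.16 ± 0.04 and 0.10 ± 0.04, adjusted p = 0.0166, 0.00158 and 0.0397), of which only the step from 96 to 120 h passed with each replicate left out. At 96 and 120 h p53KO cells did not differ from WT–emiRFP past the threshold (-0.07 ± 0.04, adjusted p = 0.256 at 96 h and -0.12 ± 0.06, adjusted p = 0.0963, 0.00516 with the replicate block, at 120 h). At 144 h they were 11376, 11973 and 10684, then 11905, 12108 and 11639, then 10385, 10655 and 10595 and 9836, 9713 and 9380.3. The p53KO libraries were then below the WT–emiRFP libraries without overlap (-0.30 ± 0.05, adjusted p = 8.69e-05), and the change of the difference over time passed the F test (adjusted p = 0.00163, 0.117 without replicate 2).

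Plk1 encodes the polo kinase that promotes mitotic entry, spindle assembly and cytokinesis (chr7:122159439-122169873, plus strand). In the same order of populations, it stood at 10549, 10308 and 9738, then 10815, 9143 and 8709 and 11729, 9724 and 10233 in mES cells, and at 11586, 11433 and 10535, then 10874, 10709 and 9651, then 12028, 11721 and 10572 and 11584, 11953 and 10872 at 48 h. The p53KO difference was 0.14 ± 0.10 at 0 h (adjusted p = 0.509) and 0.14 ± 0.06 at 48 h (adjusted p = 0.122, 0.000105 with the replicate block), with overlap at both times. At 72 h the values were 7701, 8126 and 7645, then 7142, 7916 and 6098, then 7422, 8139.8 and 7473 and 8225, 8388 and 7879. WT cells had changed by -0.55 ± 0.04 (adjusted p = 5.33e-18), and p53KO cells were higher than WT–emiRFP cells close to the threshold (0.21 ± 0.08, adjusted p = 0.0496, lost without replicate 1 or 3), with 1 WT–emiRFP library inside their range. At 96 h they were 9059.9, 8929.8 and 8666, then 6806, 7859.5 and 7037, then 7899.9, 7883 and 7805 and 7816, 8029 and 7833, with a p53KO difference of 0.13 ± 0.05 (adjusted p = 0.0795, 0.00886 with the block). At 120 h they were 7899, 8375 and 7552, then 7195, 7750.3 and 7213, then 7309.9, 7981 and 6854 and 7427, 7487 and 7329 (0.01 ± 0.06, adjusted p = 0.948). At 144 h they were 8074, 8357 and 7719, then 8373, 8253 and 7540.3, then 7506, 7265 and 6867 and 7432, 7422 and 7388 (-0.12 ± 0.05, adjusted p = 0.0627, 0.018 with the block). In WT cells Plk1 did not pass the threshold in any interval after 72 h (0.08 ± 0.04, -0.07 ± 0.04 and 0.04 ± 0.04, adjusted p = 0.0684, 0.114 and 0.459, with 0.0167 and 0.0372 for the first 2 under the block). From 0 to 48 h it rose by 0.16 ± 0.05 (adjusted p = 0.00198), and the F test of the p53KO difference gave an adjusted p of 0.0349 (0.0952 or more with a replicate left out).

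Cdc20 encodes the APC/C activator that the spindle checkpoint holds back until chromosomes are attached (chr4:118432901-118437352, minus strand). In the same order, it stood at 22376, 19021 and 16164, then 25088, 20122 and 18345 and 22097, 19434 and 18268 in mES cells and at 19251, 18979.6 and 17213, then 19166, 19421 and 17468, then 20241, 19461 and 17586 and 17912, 18497 and 16268 at 48 h, with all populations overlapping. The p53KO difference was -0.09 ± 0.13 (adjusted p = 0.805) and -0.09 ± 0.07 (adjusted p = 0.368, 0.00801 with the replicate block). At 72 h the values were 13742, 14424 and 13194, then 14112, 14514 and 12105, then 12908, 13911 and 12726 and 12096, 12069 and 11295, after a change of -0.47 ± 0.05 in WT cells (adjusted p = 2.24e-12). Cdc20 was lower in p53KO cells at this time (-0.20 ± 0.07, adjusted p = 0.0367, lost without replicate 1 or 2). It stayed lower without overlap at 96 h, with 16985, 17389 and 15962, then 15583, 16694 and 15143, then 15401, 14791 and 14197 and 13497, 13568 and 12551 (-0.26 ± 0.05, adjusted p = 0.00195). At 120 h the values were 15194, 15913 and 14009, then 14733, 16390.2 and 14677, then 14984, 15882 and 13411 and 13103, 12986 and 12396 (-0.25 ± 0.07, adjusted p = 0.00831, lost without replicate 1). At 144 h they were 14898, 15827 and 14284, then 16836, 16433 and 14812, then 15443, 15031 and 13695 and 13713, 13084 and 12332 (-0.30 ± 0.07, adjusted p = 0.00124). A change of this deficit over the 6 times did not pass the F test (adjusted p = 0.446). In WT cells Cdc20 rose from 72 to 96 h (0.22 ± 0.05, adjusted p = 0.000108) and passed the threshold in no other interval than that and the one before it (-0.10 ± 0.06, -0.07 ± 0.05 and 0.02 ± 0.05, adjusted p = 0.0869, 0.229 and 0.746). Hmmr was the other member that was lower in p53KO cells at 4 or more times, in its case at all 5 gastruloid time points.

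Genes that act on the programme from outside the set included direct p53 targets. Of 6 p53 target genes that act at G2/M (Cdkn1a, Gadd45a, Btg2, Sfn, Rprm, Gtse1), 4, 4, 5, 5, 5 and 5 were lower in p53KO–emiRFP cells at 0, 48, 72, 96, 120 and 144 h, and 1 was higher at 144 h. Cdkn1a averaged 89.2 normalised counts in p53KO and 2659 in WT–emiRFP cells at 48 h (-4.90 ± 0.10, adjusted p = 9.41e-15). At 72 h the averages were 6135 and 15929.5 (-1.38 ± 0.06, adjusted p = 9.91e-11), and both averages were above those at 48 h. Gtse1, a microtubule protein that holds p53 out of the nucleus in G2, was lower at all 6 times, with log2 fold changes from -1.80 ± 0.06 at 72 h (adjusted p = 1.32e-11) to -1.0 ± 0.14 at 0 h (adjusted p = 0.000645). In mES cells, where no member passed the threshold, Cdkn1a was already lower (-2.18 ± 0.16, adjusted p = 4.2e-06).

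At 144 h 65.3% of all genes were past the threshold between p53KO–emiRFP and WT–emiRFP cells (33.1% higher and 32.1% lower), and at 120 h 51.0%. Of the 11 DREAM and MuvB genes, 5 were higher and 1 lower in p53KO cells at 144 h (median 0.06), and at most 3 passed the threshold at any earlier time. Lin9, a MuvB subunit, passed it at no time (log2 fold changes from -0.14 to 0.14). E2f4, the DREAM E2F, was higher at 48, 72 and 96 h (0.30 ± 0.08, adjusted p = 0.0102 at 72 h) and lower at 144 h (-0.14 ± 0.05, adjusted p = 0.025). Nfyb, an NF-Y subunit, was lower at 120 h (-0.37 ± 0.06, adjusted p = 0.000124) and 144 h (-0.43 ± 0.05, adjusted p = 8.21e-06), and of the 3 NF-Y genes 1 was lower at both times and 1 higher at 144 h. Of 14 genes for APC/C subunits and their inhibitor, 8 were higher and 3 lower at 144 h (median 0.22), and the inhibitor Fbxo5 was lower at 120 h (-0.37 ± 0.05, adjusted p = 1.98e-05) and 144 h (-0.31 ± 0.06, adjusted p = 0.000393). Of the 2 CDK1 inhibitory kinases, Wee1 passed the threshold at no time (-0.09 ± 0.07 at 144 h) and Pkmyt1 was lower at 120 h (-0.26 ± 0.10, adjusted p = 0.0352) and 144 h (-0.60 ± 0.08, adjusted p = 9.87e-06). In WT cells between 48 and 72 h, when 35 members and 34.1% of all genes fell (32.8% rose), both kinases, 6 of 11 DREAM and MuvB genes, all 3 NF-Y genes and 5 of 14 APC/C genes fell too, and 2 DREAM and MuvB genes and 3 APC/C genes rose. Marker genes differed between p53KO and WT–emiRFP cells at 144 h for 3 of 5 neuronal genes (1 higher, 2 lower) and 4 of 5 endothelial and blood genes (1 higher, 3 lower). They also differed for 3 of 4 cardiac genes (1 higher, 2 lower). Pecam1 and Stmn2 of these lists were also read in mES cells. The part of tissue makeup in the members' differences was not tested.

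WT–mCherry cells beside p53KO–emiRFP cells, the losers of the competition, were compared with WT–mCherry cells beside WT–emiRFP cells. Without a replicate block, at most 7 of the 40 genes passed the threshold at any time. With the block, 29 were lower at 96 h, where 20.9% of all genes passed. No member passed the threshold at 48 h (0.0735% of all genes), at 72 h (0.559%) or at 120 h (5.95%) by edgeR, with 2, 3 and 8 members at an unadjusted p below 0.05 and 1, 1 and 3 called by DESeq2. With the replicate block 4 members were lower at 48 h (4.91% of all genes past the threshold) and 1 at 72 h (2.27%). At 96 h, 7 members were lower and none higher, against 3.93% of all genes (2.87% higher, 1.05% lower), and the median was -0.14 (0.00 over all genes), with 39 of the 40 log2 fold changes below 0 and only Pttg1 above (0.04 ± 0.16, adjusted p = 0.915). Mad2l1 stood at 7895, 7841 and 8933 beside p53KO and 10370.2, 9346 and 9997 beside WT cells (-0.27 ± 0.06, adjusted p = 0.0294). Kif2c, a microtubule depolymerase, stood at 5944, 5914 and 6287 and 7029, 6879 and 6962 (-0.20 ± 0.04, adjusted p = 0.0151). Kif20a stood at 9117, 8627 and 9341 and 10548, 10388 and 9938 (-0.19 ± 0.05, adjusted p = 0.043). The groups did not overlap for any of the 3. The values of Ccnb1, Cdk1, Plk1 and Cdc20 given above also lay lower without overlap (-0.14 ± 0.05, -0.12 ± 0.04, -0.18 ± 0.05 and -0.18 ± 0.05) and did not pass the threshold (adjusted p = 0.164, 0.148, 0.0592 and 0.065, and 0.00505, 0.0173, 0.00173 and 0.000383 with the replicate block).

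How many members passed at 96 h depended on the fit. The replicate block gave 29 lower (20.9% of all genes past the threshold), and DESeq2 15 lower. The fit of the 2 groups alone, the fit without replicate 1 and the fit without replicate 2 gave 0, and without replicate 3 it was 6. The group beside WT cells enters a second comparison at this time, with WT–emiRFP cells of the same gastruloids, in which 6 members were lower in WT–emiRFP and none higher (2.15% of all genes past the threshold, 1.26% higher and 0.894% lower), with a median of -0.14 (0.01 over all genes) and 29 lower under the replicate block (16.0% of all genes past the threshold). The 2 comparisons share those 3 WT–mCherry libraries, whose library medians averaged -0.17, against -0.30 in WT–emiRFP, -0.33 in WT–mCherry beside p53KO and -0.32 in p53KO–emiRFP cells. In the comparison of the 2 WT clones Plk1, which passed the threshold (-0.30 ± 0.05, adjusted p = 0.00563), had the values given above. Ube2c stood at 7392, 8329.6 and 7245 in WT–emiRFP and 9526, 9574 and 8988 in WT–mCherry cells (-0.29 ± 0.05, adjusted p = 0.00893). Aurka, the spindle-pole kinase, stood at 4869.7, 5189.8 and 4921 and 5988, 6091 and 5654 (-0.24 ± 0.04, adjusted p = 0.00743). Neither overlapped. Ccnb1, Cdk1 and Cdc20 did not pass (-0.14 ± 0.05, -0.11 ± 0.04 and -0.09 ± 0.05, adjusted p = 0.195, 0.229 and 0.445, with 0.00495 and 0.0321 for Ccnb1 and Cdk1 under the block). No call of either comparison at 96 h was kept with each replicate left out in turn. H2bc14 and H2bc7 are H2B genes read at far higher levels in the WT–emiRFP clone, which carries H2B–emiRFP670, than in WT–mCherry (median log2 fold change 5.96 to 9.29 over the 6 times). They were higher in WT–mCherry cells beside p53KO than beside WT cells at 96, 120 and 144 h (2 of 2, median log2 fold changes 1.56, 1.73 and 2.51). At 144 h they summed to 184 to 1238 normalised counts beside p53KO cells, 25.6 to 201 beside WT cells and 7467 to 8102 in p53KO–emiRFP cells. A change in the WT–mCherry cells and material of emiRFP cells in the sorted libraries cannot be told apart here. The paper states that the purity of the sorted samples was not checked. The part of these genes in the differences was not tested.

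**Figure D4:**
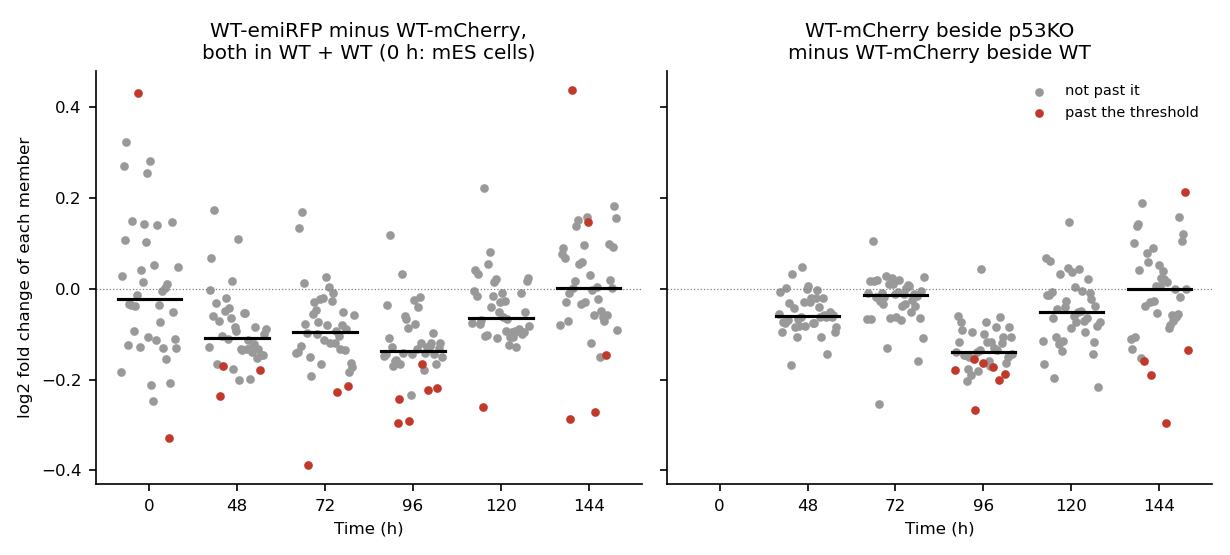
Fitted log2 fold change of each of the 40 members (points) at each time in hours, for the 2 WT clones compared (left) and for WT–mCherry cells with p53KO neighbours relative to those with WT neighbours (right, from 48 h); black bars are medians and red points have an adjusted p below 0.05. Both panels show most members below 0 at 48 h (36 of 40 in each) and at 96 h (38 on the left, 39 on the right), and both are centred on 0 at 144 h. At each time from 48 h they share the 3 WT–mCherry libraries beside WT cells.

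At 120 h the loser cells had log2 fold changes of -0.17 ± 0.06 for Ccnb1, -0.01 ± 0.06 for Cdk1, -0.11 ± 0.06 for Plk1 and -0.03 ± 0.07 for Cdc20 (adjusted p = 0.117, 0.925, 0.369 and 0.881). At 48 and 72 h those of the same 4 genes lay between -0.07 and 0.05 with adjusted p of 0.819 or more. At 144 h, 1 member was higher and 4 lower in the loser cells (25.5% of all genes past the threshold, 10.1% higher and 15.4% lower; median 0.00, against -0.03), and the direction depended on the scaling: TMM and total counts each gave 5 higher and 1 lower, and the replicate block gave 6 higher and 7 lower (37.2% of all genes). Nuf2 stood at 2585, 2533 and 2732 beside p53KO and 3323, 3079.7 and 3239 beside WT cells (-0.30 ± 0.05, adjusted p = 0.00162) and was the call kept with each replicate left out. Mad2l1 stood at 7247, 7055 and 7947 and 8394, 8321 and 8670.2 (-0.19 ± 0.06, adjusted p = 0.0268). Anln, the gene that was higher, stood at 13375, 14829.5 and 15362 and 11895, 13223 and 12488 (0.21 ± 0.07, adjusted p = 0.0309). The groups of these 3 genes did not overlap. Plk1 was lower (-0.16 ± 0.05, adjusted p = 0.0428), and Ccnb1, Cdk1 and Cdc20 did not pass (-0.13 ± 0.06, -0.11 ± 0.05 and -0.03 ± 0.07, adjusted p = 0.132, 0.128 and 0.803, with 0.0243 for Ccnb1 under the block). Cdkn1a was higher in loser cells at 96 h (0.42 ± 0.10, adjusted p = 0.0314), 120 h (0.58 ± 0.11, adjusted p = 0.00702) and 144 h (0.58 ± 0.10, adjusted p = 0.00144). Of the 20 G1/S and replication genes, 5, 3 and 11 were lower at these times and none higher. The difference between the 2 settings changed over time for 2 members by the F test, where 11.6% of all genes passed: Mybl2 (adjusted p = 0.00455), whose log2 fold changes were -0.17, -0.25, -0.20, -0.20 and 0.19 in time order, and Kif23 (adjusted p = 0.0179), with -0.05, -0.16, -0.16, -0.12 and 0.10. Neither call was kept with each replicate left out: Mybl2 was lost without replicate 1 or 2 (adjusted p = 0.0873 and 0.107) and Kif23 without any of the 3 (0.106 to 0.392). For Ccnb1, Cdk1, Plk1 and Cdc20 it did not pass (adjusted p from 0.46 to 0.968). Of the 6 mES cell markers, Nanog, Klf4 and Esrrb passed the same F test (adjusted p = 0.0137, 0.0157 and 0.00163), and 2, 3, 2, 2 and 0 of them were lower beside p53KO cells in time order, with none higher. Their summed level at 120 h ran from 46087 to 47153 normalised counts beside p53KO cells and from 52038 to 65206 beside WT cells. Their part in the change of Mybl2 and Kif23 was not tested.

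The 2 WT clones, which carry intact p53 and from 48 h grew in the same gastruloids, give the size of difference found between clones without a p53 mutation. Their comparison leaves out the differences in gastruloid, neighbours and number seeded that enter that of p53KO–emiRFP with WT–emiRFP cells. In mES cells, 1 member was higher and 1 lower in WT–emiRFP cells (11.1% of all genes past the threshold, 6.57% higher and 4.50% lower; median -0.02, against 0.00). The checkpoint kinase Bub1 stood at 10709, 12239 and 12872 in WT–emiRFP and 8054, 8861 and 9674 in WT–mCherry libraries (0.43 ± 0.10, adjusted p = 0.0145). Hmmr stood at 9719, 10542 and 11375 and 13283, 12062 and 14406 (-0.33 ± 0.09, adjusted p = 0.0306). Neither overlapped, and neither was kept with each replicate left out. At 48 h, 3 members were lower (8.89% of all genes past the threshold, 4.18% higher and 4.71% lower; median -0.11, against -0.01). Mybl2 stood at 17489, 17905 and 17541 and 20884, 20367 and 21122 (-0.24 ± 0.04, adjusted p = 0.00188). Kif23 stood at 6308, 6245 and 6046 and 7132, 6881 and 7042 (-0.18 ± 0.04, adjusted p = 0.0204). Aurka stood at 7427, 7358 and 7092 and 8406, 8329 and 7877 (-0.17 ± 0.04, adjusted p = 0.0213). None of the 3 calls was kept with each replicate left out, Mybl2 being lost without replicate 1. Here 27 members passed with the replicate block (2 higher, 25 lower, with 28.8% of all genes), and scaling by total counts gave 2 higher and 1 lower.

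At 72 h, 3 members were again lower in WT–emiRFP cells (7.64% of all genes past the threshold, 4.35% higher and 3.30% lower; median -0.10, against 0.01). Mybl2 stood at 12298, 12799.7 and 11499.8 in WT–emiRFP and 15573, 16564 and 15779.8 in WT–mCherry cells (-0.39 ± 0.06, adjusted p = 0.00166). Top2a stood at 27754, 28949 and 29447 and 32860.0, 32786 and 35157 (-0.23 ± 0.06, adjusted p = 0.0343) and Kif23 at 5104, 5118 and 4727 and 5678, 5911 and 5744 (-0.21 ± 0.05, adjusted p = 0.0154). None overlapped, and Mybl2 kept its call with each replicate left out. At 120 h only Foxm1, given above, passed, and not without replicate 1 or 3 (1.24% of all genes, 0.716% higher and 0.520% lower; median -0.06, against -0.01), and 4 members did with the replicate block (10.8% of all genes). At 144 h, 2 members were higher and 3 lower (23.8% of all genes, 10.8% higher and 13.0% lower; median 0.00, against 0.01), 6 and 4 with the replicate block (33.9% of all genes), and 1 and 3 when scaled by total counts. Mybl2 was now higher, at 34158, 33614 and 37722 against 24377, 26434 and 27135 (0.44 ± 0.08, adjusted p = 0.00146). Espl1 was also higher, at 10469.7, 10589 and 10214 against 9221, 9665 and 9346 (0.15 ± 0.04, adjusted p = 0.0292). Nuf2 was lower, at 2738, 2546 and 2699 against 3323, 3079.7 and 3239 (-0.27 ± 0.05, adjusted p = 0.00243). Kif4 was lower too, at 4122, 4111 and 4205 against 4558, 4545 and 4664 (-0.15 ± 0.05, adjusted p = 0.0309), with no overlap in any of these, and the calls of Espl1 and Kif4 were not kept with a replicate left out. The mES cell markers went with Mybl2 between the clones as well, with 4 of 6 lower at 48 h (median -0.47) and at 72 h (median -0.52) and 4 of 6 higher at 144 h (median 0.45), and their part was not tested. Apart from Plk1 at 96 h, Ccnb1, Cdk1, Plk1 and Cdc20 passed the threshold between the clones at no time, with log2 fold changes at the other times from -0.15 to 0.14 and adjusted p of 0.18 or more. Under the replicate block Plk1 passed at 48 h (adjusted p = 0.00413).

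Side by side, Mybl2 at 144 h averaged 10875 normalised counts in p53KO–emiRFP, 35165 in WT–emiRFP, 29596 in WT–mCherry beside p53KO and 25982 in WT–mCherry beside WT cells. Foxm1 averaged 8352, 5288, 5808 and 6453 in the same order. The p53KO–emiRFP cells were thus outside the range of all 3 WT populations for both genes. Ccnb1, with 15176, 18890.5, 16366 and 17934, had its lowest mean in p53KO cells, and the loser libraries overlapped both those of p53KO cells and those of WT–mCherry cells beside WT cells.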

How the data were processed

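RNA was taken from 69 samples, 3 in each of 23 groups given by the labels. The authors made the deposited counts by trimming reads with Trim Galore 0.6.7, aligning them to GRCm38.p6 with STAR 2.7.11b and counting uniquely mapped reads per gene, so that values are raw read counts and reads shared with near-identical copies are left out. Libraries held 26722541 to 72981570 counts. The members are fixed by gene symbol, with no threshold on a measured value, but they and the gene lists were chosen with earlier results of these data known. Counts were divided by median-of-ratios size factors over all libraries. Genes with low counts were removed with filterByExpr. Differences were tested with edgeR 4.0.16's quasi-likelihood test, two-sided, with Benjamini-Hochberg adjustment over all genes tested and a threshold of 0.05. Each fit used all libraries of a time point, and the WT intervals and F tests used all 69 libraries. Replicates are 3 separate experiments per the study's methods. Same-numbered samples deviated together (every pair's correlation over 0.1) at all times for p53KO–emiRFP against WT–emiRFP cells, at 48, 72, 96 and 144 h for WT–mCherry cells, at 48, 96, 120 and 144 h for the clones and in all WT intervals after 48 h, and the number is a block only in the alternative fit. Genes were named by rule, which took Ccnb1, Cdk1, Plk1 and Cdc20 throughout and, in each comparison, the 3 members with the largest rise and the 3 with the largest fall among those past the threshold, and outside the set Trp53, Cdkn1a, Gtse1, Lin9, E2f4, Nfyb, Wee1 and Fbxo5. A few more were named after their values were seen. Alternatives were TMM (edgeR) and total-count scaling, no filter, DESeq2 1.42.0, the block, leaving out each replicate, fitting the compared groups alone and fitting all libraries together. The scripts were tested on simulated data.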

Additional observations from a re-analysis of the deposited data

Results flagged for a closer look

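The difference between p53KO–emiRFP and WT–emiRFP cells changed over the 6 time points for 27 of the 40 members (edgeR F test of the interaction between genotype and time, Benjamini-Hochberg adjusted p below 0.05), a share near the 62.5% of all genes that passed it. The smallest adjusted p values were 9.91e-27 for Mybl2 and 1.32e-14 for Foxm1. Of the 4 genes followed throughout, Ccnb1 (adjusted p = 1.13e-05), Cdk1 (0.00163) and Plk1 (0.0349) passed and Cdc20 did not (0.446). Plk1 did not pass without replicate 1, 2 or 3 (0.248, 0.123 and 0.0952), nor Cdk1 without replicate 2 (0.117). The difference between WT–mCherry cells beside p53KO and beside WT cells changed over the 5 gastruloid time points for 2 members, Mybl2 (adjusted p = 0.00455) and Kif23 (adjusted p = 0.0179), where 11.6% of all genes passed it. With a replicate left out, Mybl2 did not pass without replicate 1 or 2 (0.0873 and 0.107) and Kif23 without any of the 3 (0.106, 0.392 and 0.203). The mES cell markers Nanog, Klf4 and Esrrb passed it too (adjusted p = 0.0137, 0.0157 and 0.00163), and their part in the change of Mybl2 and Kif23 was not tested.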

How the results depend on the processing

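The split of calls turned with the scaling in p53KO–emiRFP cells at 96 h (3 higher and 4 lower; 7 and 3 with TMM or total counts), in WT–mCherry cells at 144 h (1 and 4; 5 and 1) and between the clones at 48 h (0 and 3; 2 and 1 with total counts), and the clones' median at 0 h turned from -0.02 to 0.03 without replicate 3. Of 215 medians of the members under an alternative, 5 moved by more than the replicate spread. With total-count scaling the median was -0.28 from 48 to 72 h and 0.21 from 96 to 120 h in WT cells, and -0.0567 between the clones at 48 h. With a replicate left out it ranged from -0.0287 to 0.0271 between the clones at 0 h and from -0.148 to -0.0861 in WT cells from 0 to 48 h. The counts of members past the threshold that moved by over 1.5 times are these, with the cause not tested unless fewer samples entered the fit. In p53KO–emiRFP against WT–emiRFP cells, mES cells gave 1 with DESeq2, with all libraries in a fit and with total-count scaling, and 48 h gave 3 with TMM, no filter, total counts or the compared groups alone and 21 with the replicate block, which gave 15 at 96 h and 26 at 120 h. In WT–mCherry cells the block gave 4, 1, 29, 7 and 13 members at 48, 72, 96, 120 and 144 h (7 for the change over time), DESeq2 gave 1, 1, 15 and 3 at the first 4 times (5 for the change over time), no filter gave 1 at 72 h, 1 at 120 h and 1 for the change over time, all libraries in a fit gave 1 at 120 h, and the compared groups alone gave 0 at 96 h and 1 at 144 h. TMM and total counts gave 4 and 5 for the change over time. Between the clones the block gave 5, 27, 9, 29, 4 and 10 at 0, 48, 72, 96, 120 and 144 h, DESeq2 gave 7, 6 and 12 at 48, 72 and 96 h, no filter gave 5 at 48 h and 2 at 120 h, the compared groups alone gave 1, 1, 0, 0 and 3 at 0, 72, 96, 120 and 144 h, and all libraries in a fit gave 10 at 0 h. The paired numbers changed no other member count by over 1.5 times. The replicate numbers did not pair the samples at 120 h in WT–mCherry cells (lowest correlation 0.0717), at 0 h (0.0865) and 72 h (0.0377) between the clones and from 0 to 48 h in WT cells (-0.0305). Leaving out each replicate gave, for p53KO–emiRFP cells, 1 to 2 members at 48 h, 7 to 13 at 72 h, 3 to 5 at 96 h and 7 to 15 at 120 h, and 16 to 21 for the change over time. It gave 0 to 6 at 96 h, 0 to 1 at 120 h, 1 to 2 at 144 h and 0 to 1 for the change over time in WT–mCherry cells. Between the clones it gave 0 to 2 at 0 h, 0 to 1 at 48 h, 1 to 3 at 72 h, 0 to 4 at 96 h, 0 to 1 at 120 h and 3 at 144 h. Of the values of single genes under an alternative, 1440 kept their side of the threshold, 131 lost it and 38 gained it.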
